A study of Mus musculus with 12 samples.

Results

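Expression of 8 genes for cell surface molecules through which antigen-presenting cells address T cells and phagocytes was followed in mouse bone marrow-derived macrophages (BMDMs). The genes were Cd80, Cd86, Cd274, Pdcd1lg2, Icosl, Icam1, Cd47 and Sirpa. Sirpa encodes the receptor of CD47, and is counted with the ligand genes below. They were taken by gene symbol from the expression tables, and each matched 1 of 23847 rows. All 8 reached 1 FPKM in at least 1 sample and are among the 11191 rows tested. FPKM divides the fragments of a transcript by its length and by the total mapped in that sample, so levels can be set side by side between genes and are relative within a sample.

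A T cell that meets its antigen needs a further signal from the cell that presents it. CD80 and CD86 give that signal through CD28 and withhold it through CTLA-4, and ICOS ligand gives a related signal through ICOS. PD-L1, encoded by Cd274, and PD-L2, encoded by Pdcd1lg2, engage the inhibitory receptor PD-1. ICAM-1 holds the cells together by binding the integrin LFA-1. CD47 is carried by most cells and restrains phagocytosis when it binds SIRPa on the macrophage. Interferons and other inflammatory signals are known to raise PD-L1 in many cell types, and IL-4 is known to raise PD-L2 in macrophages.

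RNA-seq was performed on WT BMDMs of C57BL/6 mice aged 8 to 12 weeks, differentiated for 6 days in L929-conditioned medium as a source of M-CSF, a mixture of factors rather than a pure one. Control cells received no stimulus, the IL-4 group had 24 h of IL-4 (20 ng/ml), the LPS group had 3 h of bacterial lipopolysaccharide (100 ng/ml), and the IL-4+LPS group had the former followed by the latter. Each of the 4 groups held 3 samples, which the study describes as individual animals of 2 independent experiments, and the labels do not say whether a replicate number marks the same animal across groups or which samples belong to which experiment. The comparisons ask how the ligands respond to LPS with and without IL-4 pretreatment, and how IL-4 alters them with and without LPS.

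Within a group, samples correlated with Pearson r of 0.954 to 0.983. Relative depth, estimated from the spacing of low FPKM values, ran from 0.991 to 3.30 with control replicate 1 set to 1. Replicate 1 was the shallowest sample of every group, at 0.993 with IL-4, 1.03 with LPS and 0.991 with both. All samples numbered 2 or 3 were at 1.27 or more, so low values are least certain in the samples numbered 1. Macrophage markers were expressed. Lyz2, which encodes lysozyme, stood at 16116 ± 668 FPKM in control (SD, n = 3), 4873 ± 162 with IL-4, 12881 ± 511 with LPS and 4298 ± 180 with both. Emr1, which encodes F4/80, stood at 1003 ± 29.8, 454 ± 9.58, 1052 ± 119 and 602 ± 39.0 FPKM in the same order. The T cell marker Cd3e was near 0, at no more than 0.067 FPKM in any sample. Cd4 was 10.7 ± 1.03 FPKM (SD, n = 3) in control, 0.678 ± 0.163 in IL-4, 6.285 ± 0.262 with LPS and 0.345 ± 0.066 with both. Lck was at 0.111 ± 0.038, 0.072 ± 0.019, 2.195 ± 1.553 and 1.663 ± 1.056 FPKM in the same order. The B cell marker Cd79b was at 2.513 ± 0.63, 0.829 ± 0.246, 0.762 ± 0.241 and 3.404 ± 1.144 FPKM. All other listed T and B cell markers stayed under 1 FPKM. The 7 dendritic cell markers summed to 1.25 to 1.93 FPKM in control, 0.739 to 1.33 with IL-4, 1.85 to 3.04 with LPS and 2.88 to 3.86 with both. Zbtb46 accounted for most of the last difference, at 0.369 ± 0.176 FPKM with IL-4 and 2.42 ± 0.451 with both (n = 3), and the mean of every other marker of that list stayed under 1 FPKM in every group. Neutrophil markers, 4 of 5 of which were found, summed to 356 to 932 FPKM in control, 228 to 424 with IL-4, 552 to 1135 with LPS and 453 to 912 with both. The part of these shifts in the results below was not tested. In such bulk samples, fewer cells of a type and less RNA per cell cannot be told apart.

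LPS raised 5 of the 8 genes and lowered 1, the receptor gene Sirpa, where 16.9% of all tested rows were higher and 57.7% lower (74.6% in either direction). In IL-4-pretreated cells it raised 6 and lowered 2, against 15.0% and 57.9% of all rows (72.9%). IL-4 alone raised 2 and lowered 5, against 16.0% and 21.0% (37.0%). Between IL-4+LPS and LPS, 2 ligands were higher and 4 lower, against 15.0% and 15.8% (30.9%). The interaction subtracts the LPS response of untreated cells from that of IL-4-pretreated cells. It passed for 4 of the 8, with 3 positive and 1 negative, against 4.58% and 4.63% of all rows (9.2%). Calls are those of limma on log2(FPKM + 1) with an adjusted p under 0.05 over all tested rows, and log2 differences on this scale understate the change of low values.

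The median log2 difference of the 8 genes was 0.89 in LPS minus control, where the median of all rows was -0.44. It was -0.63 against -0.05 in IL-4 minus control, 1.31 against -0.41 in IL-4+LPS minus IL-4, 0.00 against -0.03 in IL-4+LPS minus LPS and 0.34 against 0.04 in the interaction. Rescaling the samples changed the balance of LPS calls. As deposited, 22.6% of the calls in LPS minus control were higher, compared with 40.4% after median scaling and 40.2% after quantile normalization. The same shares were 20.6%, 39.6% and 37.1% in IL-4+LPS minus IL-4, and median scaling moved the medians of all rows to -0.14 and -0.12. The groups share samples across comparisons, since both LPS minus control and IL-4 minus control use the control samples.

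**Figure D1:**
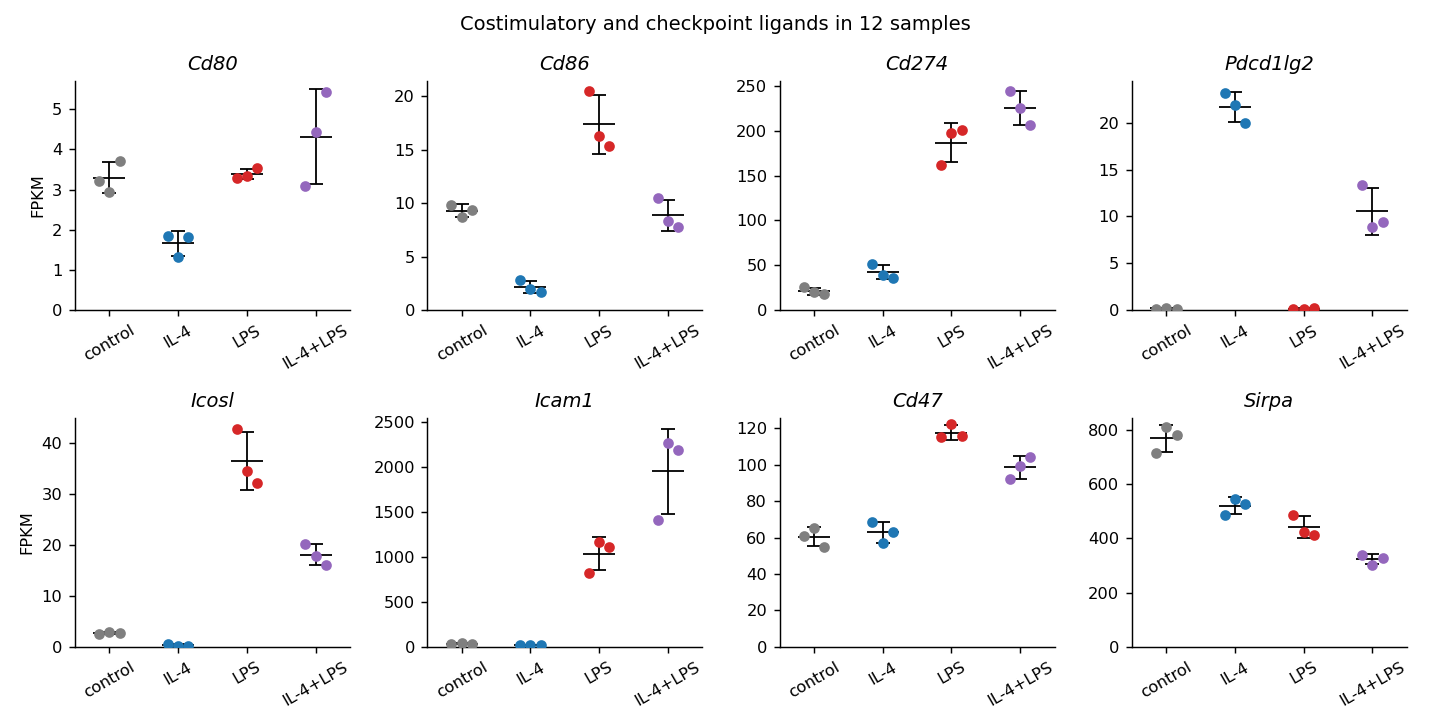
FPKM of the 8 ligand genes (y axis, linear, starting at 0) in each of the 4 groups (x axis). Points are samples, the wide bar is the mean and whiskers are 1 SD (n = 3). Cd274, Icosl and Icam1 are high in both LPS groups, Pdcd1lg2 is high in both IL-4 groups, and Sirpa is highest in control.

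The costimulatory genes Cd86 and Icosl were raised by LPS and lowered by IL-4, whereas Cd80 was lowered by IL-4 and did not pass the test for LPS alone. Cd80 (chromosome 16, 38458933 to 38486932, plus strand of mm10) and Cd86 (chromosome 16, 36603869 to 36666077, minus strand) lie 1792855 bases apart. Both are protein-coding genes. Cd86 stood at 9.86, 8.69 and 9.35 FPKM in the control samples, and fell to 2.83, 1.98 and 1.68 with IL-4. LPS brought it to 20.5, 16.3 and 15.3 FPKM, and IL-4+LPS to 10.5, 8.32 and 7.74. IL-4 samples were thus the lowest and LPS samples the highest without overlap, while IL-4+LPS and control overlapped.

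In mean FPKM, Cd86 was 1.87 times higher in LPS than in control, a log2 difference of 0.82 (standard error 0.154, adjusted p = 0.0006). IL-4 lowered it 4.30-fold (log2 difference -1.72, adjusted p = 1.54e-05). After IL-4, LPS raised Cd86 4.09-fold over its new baseline (1.65, adjusted p = 4.83e-06), yet the level reached was 1.96-fold below that in LPS alone (-0.90, adjusted p = 0.00141). The gain in FPKM was 8.04 without IL-4 (6.49 without LPS replicate 1) and 6.69 with it, so its order depended on 1 sample. The interaction was 0.82 on the log2 scale (adjusted p = 0.0417). It is close to the threshold and was lost, with adjusted p of 0.0656 to 0.105, in 9 of the 12 fits that leave out 1 sample, namely those without any 1 of the 3 control samples, IL-4 replicate 2 or 3, LPS replicate 2 or 3, or IL-4+LPS replicate 1 or 2.

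Cd80 was the lower of the CD28 ligands in all groups except for 1 IL-4 sample. Its FPKM was 3.22, 2.95 and 3.71 in control and 1.85, 1.31 and 1.82 with IL-4, then 3.28, 3.35 and 3.53 with LPS and 3.08, 4.43 and 5.43 with IL-4+LPS. All IL-4 samples lay below all others, and the other 3 groups overlapped. IL-4 lowered Cd80 1.99-fold (log2 difference -0.69, adjusted p = 0.00528).

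LPS minus control was 0.03 for Cd80 (95% interval -0.30 to 0.37, adjusted p = 0.849), a value that stood 0.48 above the median of all rows and passed after quantile normalization at 0.62 (adjusted p = 0.00575). In IL-4-pretreated cells, LPS raised Cd80 2.60-fold (0.98, adjusted p = 0.00019). IL-4+LPS minus LPS was 0.25 (95% interval -0.09 to 0.59, adjusted p = 0.248). Without IL-4+LPS replicate 1, the lowest of its group, that difference was 0.43 (adjusted p = 0.023). The interaction was 0.95 (standard error 0.216, adjusted p = 0.0217). Leaving out control replicate 3, IL-4 replicate 2, LPS replicate 2 or IL-4+LPS replicate 2 gave adjusted p of 0.0532 to 0.059 for it.

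Icosl (chromosome 10, 78069368 to 78079525, plus strand) encodes the ligand of ICOS and had the widest swing of the costimulatory genes. Control samples held 2.42, 2.89 and 2.65 FPKM. IL-4 samples held 0.460, 0.092 and 0.244 FPKM, below every control sample. LPS samples held 42.8, 34.4 and 32.1 FPKM and IL-4+LPS samples 20.2, 17.8 and 16.1. The 4 groups did not overlap, in the order IL-4, control, IL-4+LPS, LPS.

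LPS raised the mean of Icosl 13.7-fold (log2 difference 3.35, standard error 0.136, adjusted p = 1.26e-08), and IL-4 lowered it 9.98-fold (-1.54, adjusted p = 1.4e-05). LPS after IL-4 gave a 68.0-fold rise (3.92, adjusted p = 5.1e-09). Both folds rest on IL-4 values under 0.5 FPKM and were 15.8 and 108 without IL-4 replicate 1. The level in IL-4+LPS was 2.02-fold below that in LPS (-0.97, adjusted p = 0.000373), and the gain in FPKM was 17.8 compared with 33.8 without IL-4. The interaction of 0.57 did not pass (adjusted p = 0.0967). It depended on how low values were treated, being 2.04 (adjusted p = 0.0168) with a pseudocount of 0.1 in place of 1, and it passed without LPS replicate 1 at 0.69 (adjusted p = 0.0388).

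The PD-1 ligands had different profiles although they are neighbours. Cd274 (chromosome 19, 29367438 to 29388094) and Pdcd1lg2 (chromosome 19, 29410919 to 29472927) both lie on the plus strand with 22824 bases between them. Cd274 was raised by LPS and by IL-4, whereas Pdcd1lg2 was raised by IL-4 and not detectably by LPS. Pdcd1lg2 was at 0.155, 0.252 and 0.157 FPKM in control and 0.125, 0.129 and 0.235 in LPS. With IL-4 it reached 23.1, 21.9 and 19.9 FPKM, and with IL-4+LPS 13.4, 8.83 and 9.40. Control and LPS overlapped near 0, and every IL-4+LPS sample lay above them and below every IL-4 sample.

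In mean FPKM, IL-4 raised Pdcd1lg2 115-fold (log2 difference 4.25, standard error 0.132, adjusted p = 1.04e-08). IL-4+LPS stood 64.6-fold above LPS (3.29, adjusted p = 6.87e-08). LPS minus control was -0.03 (95% interval -0.32 to 0.26, adjusted p = 0.842) and had the opposite sign after median scaling and after quantile normalization. In IL-4-pretreated cells LPS lowered Pdcd1lg2 2.06-fold (-0.99, adjusted p = 5.89e-05), and relative to the median of all rows this difference was -0.59. The interaction was -0.96 (adjusted p = 0.00936) and did not pass with a pseudocount of 0.1 (-0.92, adjusted p = 0.0995). An antisense gene, A930007I19Rik, overlaps the Pdcd1lg2 locus but none of its exons.

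Cd274 was at 25.6, 19.8 and 17.9 FPKM in control and 51.4, 39.2 and 36.2 in IL-4. LPS samples held 162, 197 and 201 FPKM and IL-4+LPS samples 244, 225 and 207. The ranges of all 4 groups were separate, in the order control, IL-4, LPS, IL-4+LPS, although the last pair did not pass the test.

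LPS raised Cd274 8.86-fold (log2 difference 3.10, standard error 0.157, adjusted p = 5.41e-08), and IL-4 alone raised it 2.0-fold (0.97, adjusted p = 0.000857). After IL-4, the LPS rise was 5.33-fold (2.40, adjusted p = 3.62e-07). IL-4+LPS minus LPS was 0.27 (95% interval -0.08 to 0.62, adjusted p = 0.226). The gains in FPKM from LPS were 166 without IL-4 and 183 with it. On the log2 scale the interaction was -0.70 (adjusted p = 0.0789), and it passed without control replicate 1 at -0.84 (adjusted p = 0.0374). An antisense gene, AC119228.1, overlaps exons of Cd274, and reads of the pair cannot be told apart if strand was not used in counting.

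The promoter of Pdcd1lg2 is shown as the gene that followed IL-4, and that of Icam1, described next, as the gene that followed LPS most. The letters are the 250 bases before the RefSeq start (GRCm38.p6, plus strand, 5′ to 3′), chr19:29410669-29410918 for Pdcd1lg2 and chr9:21015690-21015939 for Icam1, with motif matches in capitals.
Pdcd1lg2: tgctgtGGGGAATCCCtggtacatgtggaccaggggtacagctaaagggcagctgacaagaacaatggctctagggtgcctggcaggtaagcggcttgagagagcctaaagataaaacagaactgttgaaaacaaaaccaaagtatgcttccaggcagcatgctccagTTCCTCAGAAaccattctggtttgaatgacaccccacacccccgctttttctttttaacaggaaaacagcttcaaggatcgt
Icam1: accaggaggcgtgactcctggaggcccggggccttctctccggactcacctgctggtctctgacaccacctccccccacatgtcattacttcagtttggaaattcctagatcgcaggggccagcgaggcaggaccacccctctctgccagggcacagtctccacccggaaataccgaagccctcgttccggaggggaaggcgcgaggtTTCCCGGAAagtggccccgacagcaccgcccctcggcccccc
In the Pdcd1lg2 window the capitals mark an NF-kB consensus match, GGGGAATCCC, at 244 to 235 bases before the start, and a STAT6 motif match (TTC and GAA with 4 bases between), TTCCTCAGAA, at 82 to 73 bases. In the Icam1 window they mark a GAS motif match (TTC and GAA with 3 bases between), TTCCCGGAA, at 42 to 34 bases. These matches read the same motif on both strands and do not overlap.

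The search covered both strands for the NF-kB consensus, the STAT6 and GAS motifs, the ISRE (GAAA and GAAA with 2 bases between) and the AP-1 motif TGANTCA. Windows were found for 6 of the 8 genes, and none for Cd86 and Sirpa. Icosl held an NF-kB consensus match, GGAGCTCCCC, at 111 to 102 bases, and Cd80 an AP-1 match, TGATTCA, at 42 to 36 bases. The windows of Cd274 and Cd47 held no match to these letters. Of 32851 promoter windows of this length, 5.9% held the STAT6 motif, 7.0% GAS, 3.0% ISRE, 6.7% AP-1 and 7.3% the NF-kB consensus. The NF-kB consensus searched was GGG, a purine, any 2 bases, 2 pyrimidines and CC, so sites that depart from it stay unmarked. In the Icam1 window, the stretch tggaaattcc differs from it only in its first base. A match, or the lack of one, describes the letters only.

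Icam1 (chromosome 9, 21015960 to 21028796, plus strand), the adhesion ligand of LFA-1, rose the most of the 8 genes with LPS and rose further after IL-4. Control samples held 30.9, 37.9 and 35.8 FPKM, and IL-4 samples 15.3, 16.9 and 15.2. With LPS the values were 828, 1167 and 1114 FPKM, and with IL-4+LPS they were 1409, 2266 and 2195. No groups overlapped, and the order was IL-4, control, LPS, IL-4+LPS. In the LPS groups Icam1 lay between percentiles 99.5 and 99.8 of the expressed rows.

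IL-4 alone lowered Icam1 2.20-fold (log2 difference -1.09, adjusted p = 0.00109). LPS raised it 29.7-fold without IL-4 (4.84, standard error 0.183, adjusted p = 9.37e-09) and 124-fold with it (6.83, adjusted p = 1.28e-09). The level after IL-4+LPS was 1.89-fold that after LPS (0.90, adjusted p = 0.00394), so the direction of the IL-4 difference was opposite before and after LPS. The interaction was 1.99 (standard error 0.259, adjusted p = 0.00114), the largest of the 8 genes, with FPKM gains of 1001 without IL-4 and 1941 with it. It passed in every fit that left out 1 sample, at 1.84 to 2.21. The antisense gene Gm47079 overlaps exons of Icam1, with the same limit as for Cd274.

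Cd47 (chromosome 16, 49855654 to 49911683, plus strand) and Sirpa (chromosome 2, 129592839 to 129632228, plus strand), which encode a ligand and the inhibitory receptor that reads it, moved in opposite directions with LPS. Cd47 was at 61.0, 65.5 and 54.9 FPKM in control and 68.5, 57.1 and 62.9 with IL-4, then 115, 123 and 116 with LPS and 92.2, 99.1 and 104 with IL-4+LPS. Control and IL-4 overlapped, and LPS lay above IL-4+LPS, which lay above both.

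LPS raised Cd47 1.95-fold (log2 difference 0.95, standard error 0.087, adjusted p = 3.16e-06), and 1.57-fold after IL-4 (0.64, adjusted p = 6.66e-05). IL-4 minus control was 0.05 (95% interval -0.14 to 0.25, adjusted p = 0.67), with the opposite sign after quantile normalization (-0.05). IL-4+LPS minus LPS was -0.26 (adjusted p = 0.0467). That call was lost after median scaling (-0.24, adjusted p = 0.0808) and, with adjusted p of 0.0538 to 0.13, in 8 of 12 fits that left out 1 sample, namely control replicate 1, IL-4 replicate 3 or any 1 of the LPS or IL-4+LPS samples. The interaction of -0.31 did not pass (adjusted p = 0.152).

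Sirpa was the most abundant of the 8 genes in the groups without LPS, at 714, 810 and 782 FPKM in control and 487, 546 and 527 in IL-4. LPS samples held 487, 422 and 412 FPKM, and IL-4+LPS samples 340, 303 and 326. Control samples were the highest and IL-4+LPS samples the lowest, while IL-4 and LPS met at a single value near 487. IL-4 lowered Sirpa 1.48-fold (log2 difference -0.56, adjusted p = 0.000542) and LPS lowered it by 0.80 on the log2 scale (adjusted p = 9.31e-06).

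After IL-4, the LPS difference was -0.69 for Sirpa (adjusted p = 3.56e-05), and IL-4+LPS lay 1.37-fold below LPS (-0.45, adjusted p = 0.00263). Relative to the median of all rows, the LPS differences were -0.36 without IL-4 and -0.28 with it. After median scaling they were -0.44 (adjusted p = 0.000316) and -0.32 (adjusted p = 0.00264). The interaction was 0.12 (adjusted p = 0.614). Sirpa shared no 50-base words with transcripts of other genes, and the largest share among the 8 genes was 1.68% for Cd274.

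**Figure D2:**
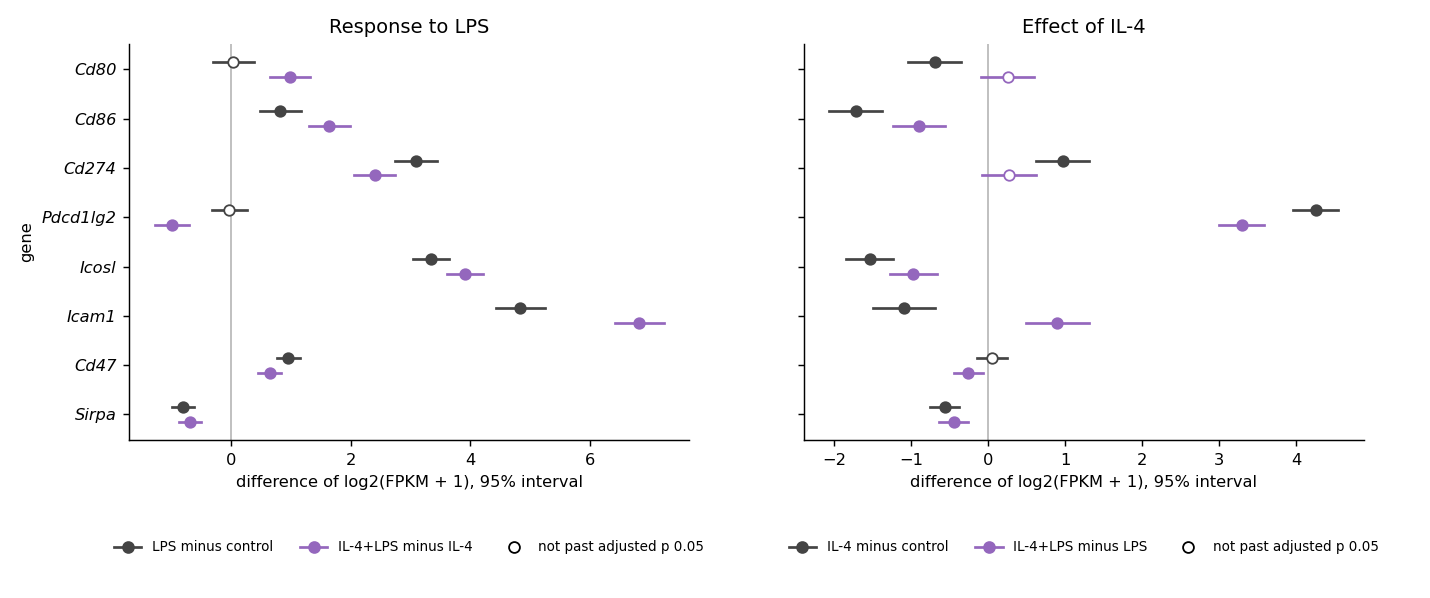
Differences of log2(FPKM + 1) (x axis) for each gene (y axis) with 95% intervals from limma. On the left are the LPS responses without IL-4 (grey) and with IL-4 (purple), and on the right the IL-4 effects without LPS (grey) and with LPS (purple); open points did not pass an adjusted p of 0.05. The IL-4 effect on Icam1 is -1.09 without LPS and 0.90 with it.

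Because FPKM is per length, the balance between ligands of 1 receptor can be read within a sample, as a description with no test. The ratio of Cd86 to Cd80 was 2.84 ± 0.282 in control (SD, n = 3) and 1.32 ± 0.347 with IL-4, against 5.14 ± 0.978 with LPS and 2.23 ± 1.04 with both. In 1 IL-4 sample it fell below 1, at 0.922. The summed level of Cd80, Cd86 and Icosl was 15.2 ± 0.627 FPKM in control and 4.09 ± 0.926 with IL-4, against 57.2 ± 8.28 with LPS and 31.2 ± 2.33 with both. These 4 groups were separate, with IL-4 the lowest and LPS the highest.

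For the PD-1 ligands the summed level of Cd274 and Pdcd1lg2 was 21.3 ± 4.0 FPKM in control and 63.9 ± 9.51 with IL-4, against 187 ± 21.5 with LPS and 236 ± 20.8 with both. Pdcd1lg2 made up 0.910% ± 0.328 of it in control, 34.2% ± 2.69 with IL-4, 0.0864% ± 0.0268 with LPS and 4.44% ± 0.717 with both. Thus Cd274 was the main PD-1 ligand transcript in all 12 samples.

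Set against the CD28 ligands, Cd274 was 1.68 ± 0.294 times the sum of Cd80 and Cd86 in control. This ratio was 11.1 ± 0.776 with IL-4, 9.19 ± 2.07 with LPS and 17.1 ± 1.24 with both. Control was lowest, IL-4 and LPS overlapped, and IL-4+LPS was highest. Sirpa was 12.8 ± 1.32 times Cd47 in control, 8.35 ± 1.23 with IL-4, 3.75 ± 0.425 with LPS and 3.29 ± 0.349 with both, where the last pair overlapped.

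**Figure D3:**
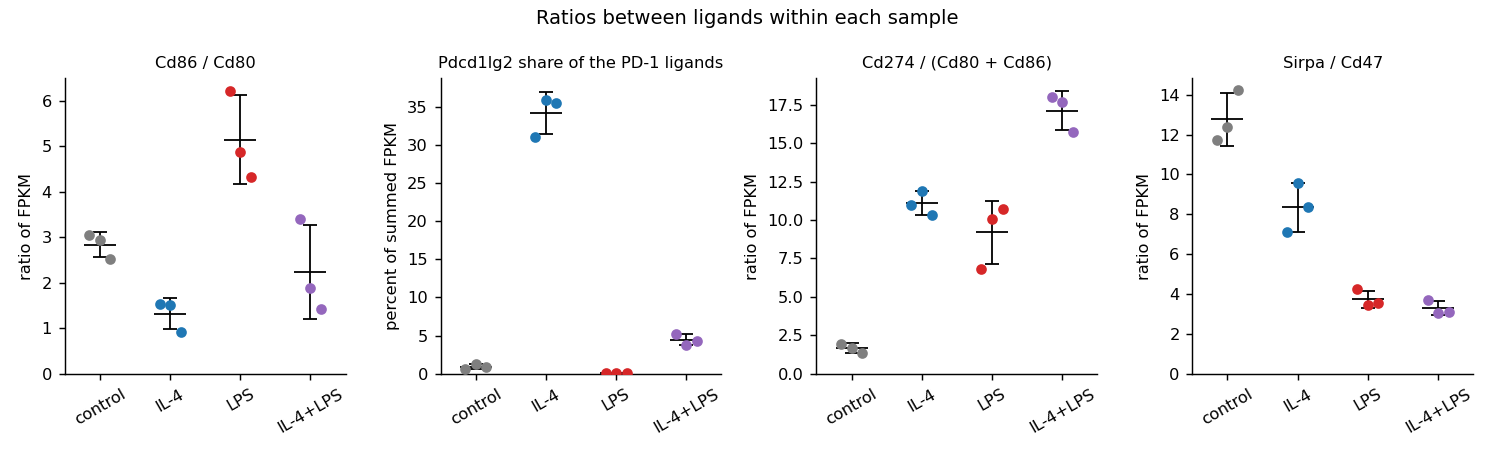
Ratios of FPKM within each sample (y axes, linear, starting at 0) by group (x axes), with the share of Pdcd1lg2 among the PD-1 ligands in percent. Points are samples, wide bars means and whiskers 1 SD (n = 3). The Pdcd1lg2 share is 34.2% in IL-4 and 4.44% in IL-4+LPS, and the Sirpa to Cd47 ratio is lowest in the LPS groups.

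Other ligands of antigen-presenting cells for T cells were examined from a list of 32 genes, of which 31 were in the tables and 23 were tested. The list also holds receptor genes, among them Cd40 and Havcr2, which encodes TIM-3. LPS raised 12 and lowered 8 of the 23, against 16.9% and 57.7% of all rows, with a median of 0.92 against -0.44, and the increases were led by Cd40 (6.21), Tnfsf9 (5.95) and Vcam1 (4.22). CD40 receives the CD40L signal from T cells, 4-1BB ligand, encoded by Tnfsf9, costimulates them, and VCAM-1 binds the integrin VLA-4. Cd40 went from 7.01 ± 1.28 to 605 ± 169 FPKM (n = 3). IL-4 alone raised 2, Cd276 and Lgals3, and lowered 7 (median -0.40), against 16.0% and 21.0% of all rows, led by Havcr2 (-0.90), Tnfsf14 (-0.88) and 4632428N05Rik, the inhibitory ligand VISTA, now named Vsir (-0.87).

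In IL-4-pretreated cells LPS raised 13 and lowered 5 of these 23 (median 1.07, against -0.41 for all rows, of which 15.0% were higher and 57.9% lower), with Vcam1 at 6.87, Cd40 at 6.61 and Tnfsf9 at 6.21. The 5 that fell were 4632428N05Rik, Cd276, Ceacam1, Havcr2 and Lgals3. IL-4+LPS stood above LPS for 7 and below it for 5 (median 0.17), against 15.0% and 15.8% of all rows. Vcam1 was higher by 1.74 (adjusted p = 0.00521), and Tnfsf4, which encodes OX40 ligand, by 1.41 (adjusted p = 0.000166). Fgl2 was lower, at -1.44 (adjusted p = 0.0283), as were 4632428N05Rik, Alcam, Tnfrsf14 and Tnfsf14. Vcam1 stood at 54.9 ± 5.61 FPKM with LPS and 189 ± 42.5 with both stimuli (n = 3). The interaction passed for 4 of the 23, Vcam1, Tnfsf15, Tnfsf4 and Cd48, all positive, against 4.58% positive among all rows, and the median of the list was 0.40.

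**Figure D4:**
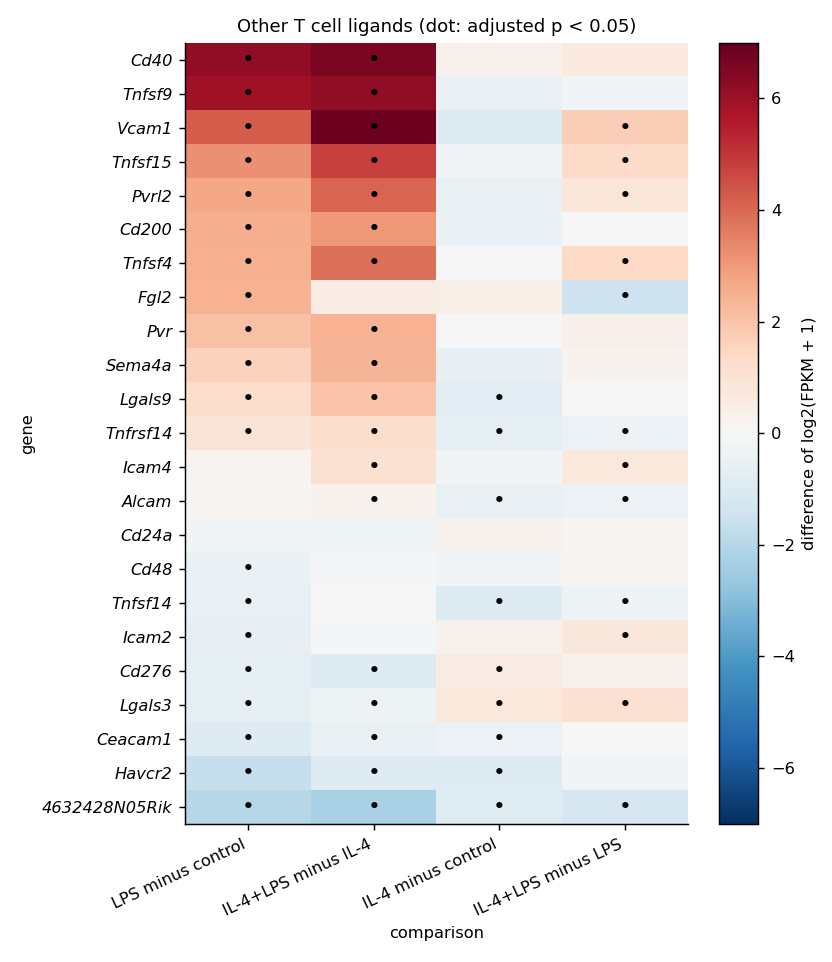
Differences of log2(FPKM + 1) (colour scale, red higher and blue lower in the first-named group) for the 23 tested genes of the list of other T cell ligands, some of them receptors (y axis), in 4 comparisons (x axis). A dot marks an adjusted p under 0.05. Cd40, Tnfsf9 and Vcam1 have the largest LPS responses, while IL-4 minus control has more dots on blue than on red cells.

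Of 6 genes for the receptors that T cells use to read these ligands, 3 were tested in the macrophages. Ctla4, Icos and Pdcd1 stayed under 1 FPKM. Cd28 was at 20.1 ± 2.08 FPKM in control, 8.38 ± 0.623 with IL-4, 1.32 ± 0.098 with LPS and 1.31 ± 0.376 with both (n = 3), with LPS minus control at -3.18 (adjusted p = 8.6e-09). The LFA-1 chains, which bind ICAM-1 and are also carried by macrophages, differed from each other. Group means of Itgal ran from 0.899 FPKM with IL-4 to 43.9 with LPS, and those of Itgb2 from 293 with LPS to 737 with IL-4. The Itgb2 chain also pairs with that of Itgam, at 136 FPKM with both stimuli to 234 in control. Changes of Itgb2 are therefore not particular to LFA-1. Itgal rose by 2.52 with LPS (adjusted p = 2.97e-08) and fell by 2.04 with IL-4 (adjusted p = 7.74e-07), while Itgb2 fell by 0.60 with LPS (adjusted p = 1.88e-05) and rose by 0.72 with IL-4 (adjusted p = 2.77e-05). The interaction passed for Cd28 and Itgal. LPS after IL-4 raised Itgal by 3.53 and lowered Cd28 (-2.03) and Itgb2 (-0.33). IL-4+LPS minus LPS passed for Itgb2 (0.99) and Itgal (-1.04).

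Genes that act with CD47 and SIRPa, 14 of 15 of which were found and tested, were lower for 8 and higher for 1, the phosphatase gene Ptpn11, in LPS minus control (median -0.31). The share of all rows that were lower was 57.7% with a median of -0.44, so the list was near the background in this comparison. In IL-4 minus control 8 were lower and 2 higher (median -0.53), against 21.0% and 16.0% of all rows, and in IL-4+LPS minus LPS 8 were lower and 2 higher (median -0.42), against 15.8% and 15.0%, the higher genes being Calr and Itgb2 in each. LPS after IL-4 raised 4 (Thbs1, Fyb, Ptpn6 and Ptpn11) and lowered 5 (Lrp1, Qpctl, Myh9, Itgb2 and Skap2), with a median of -0.28, against 15.0% and 57.9% of all rows. Thbs1, which encodes thrombospondin-1, a soluble CD47 ligand, went from 30.1 ± 11.4 FPKM in control to 0.771 ± 0.472 in IL-4 (log2 difference -4.11, adjusted p = 3.37e-06). Fyb, an adaptor of SIRPa signaling complexes, was lower in IL-4 by a log2 difference of -2.02 (adjusted p = 1.64e-05) and Sirpb1b by -1.59 (adjusted p = 0.000262). Lrp1, the receptor that takes up calreticulin-marked cells, was lower in LPS (-1.19, adjusted p = 2.81e-06). The interaction passed for 1 of the 14, Thbs1, against 9.2% of all rows.

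Genes known to regulate PD-L1 or the PD-1 ligands numbered 16, all tested. LPS raised 10 and lowered 5 (median 0.82), against 16.9% and 57.7% of all rows, led by the kinase Jak2 (4.05), the transcription factor Irf1 (3.56) and the IL-4 receptor chain Il4ra (2.74). The 5 that fell were Cmtm4, Ifngr1, March8, Spop and Stat6. IL-4 alone raised Jak2 (1.21, adjusted p = 7.72e-05), Irf1 and Spop and lowered 5, among them Ifngr1, Cmtm4, Cmtm6 and Rela, with a median of -0.19 for the list, where 16.0% of all rows were higher and 21.0% lower. Cmtm6 and Cmtm4 encode proteins that keep PD-L1 at the cell surface. LPS after IL-4 raised 10 and lowered 5 (median 0.71), against 15.0% and 57.9% of all rows, the latter being Cmtm4, March8, Spop, Ifngr2 and Stat6. IL-4+LPS was above LPS for 2 and below it for 5 (median -0.01), against 15.0% and 15.8% of all rows, with Il4ra at -2.42 (adjusted p = 0.000265), Stat3 at -0.86 (adjusted p = 0.00565) and Irf1 at 0.80 (adjusted p = 0.00235). Stat6 was also higher, and Cmtm4, Ifngr2 and Jak1 were also lower. The interaction passed for 5 of the 16, against 9.2% of all rows, positive for Stat6 and negative for Il4ra, Jak2, Jak1 and Ifngr2.

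The genes whose profile was most like that of each ligand were listed by Pearson r of log2(FPKM + 1) over the 12 samples, among 6605 rows that varied enough. The points share groups and libraries, so r is a description. For Icam1 these were Tnf (0.997), Nfkbie (0.997) and Cxcl2 (0.996), and for Cd274 Malt1 (0.996), Tra2a (0.994) and Zcchc2 (0.994). For Pdcd1lg2 they were Cldn11 (0.995), Hebp2 (0.994) and Arg1 (0.994). Icosl was most like Fas (0.995), Nlrp3 (0.995) and Fnbp1l (0.993), and Cd86 most like Ms4a6c (0.994), Nfxl1 (0.990) and Rasa4 (0.979). For Sirpa they were Tgfbr2 (0.992), Tprgl (0.992) and Mbp (0.991), and for Cd47 Ppp2r2a (0.986), Dse (0.983) and Dram1 (0.981). Cd80 had the loosest matches, with Cuedc1 (0.950), Mapk14 (0.930) and Sh3bp5 (0.907).

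The levels of some matched genes are given as a description, since a similar order of groups follows from how these genes were picked. Arg1 was at 0.1 FPKM in control, 33.5 with IL-4, 0.087 with LPS and 18.2 with both, high in both IL-4 groups as Pdcd1lg2 was. Tnf was at 15.8, 7.74, 1362 and 2035 FPKM in the same order, the order of Icam1. Ms4a6c was at 138, 28.4, 293 and 123 FPKM, with IL-4 lowest and LPS highest as for Cd86.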

How the data were processed

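RNA-seq data of 12 samples were analysed, with poly-A selected libraries sequenced as paired reads. The authors mapped reads to mm10 with TopHat2 2.0.7 and computed expression with Cufflinks 2.0.2, and they deposited FPKM values in 1 table per sample. The annotation, the strand setting and any scaling between samples are not given in the sources used here. Labels give LPS by weight, and the methods text gives its concentration in another unit. Fragment counts were not used here, so absolute depth is unknown.

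Rows with at least 1 FPKM in at least 1 sample were kept (11191). Group means of log2(FPKM + 1) over all 12 samples were fitted with limma 3.58.1 in R 4.3.3, with an intensity trend, and p-values were adjusted by Benjamini-Hochberg over these rows within each comparison (threshold 0.05). The step was tested on simulated data. That replicates are individual animals is known from the study's text only. The p-values rest on the spread between these samples, estimated jointly over the 4 groups. Genes of a list were named as at most the 3 largest differences past the threshold in each comparison, and each member's 3 most alike rows needed a log2 range and a mean FPKM of at least 1. Other genes of a list were named where a count of 5 or fewer called for it, after their values were seen. A few genes of the lists are not reported here. The members and lists were chosen with earlier results of these data known. Promoter windows came from RefSeq (GRCm38.p6) and overlaps from the GENCODE annotation. Python 3.11.15 with matplotlib 3.10.9 served for the figures.

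Alternatives were a pseudocount of 0.1, other expression filters, median scaling, quantile normalization, no intensity trend, a fit of the compared groups alone, a block for the replicate number, a 2-fold minimum, unadjusted p, and omission of each sample. The use of replicates 2 and 3 alone, and folds and FPKM gains with a sample left out, were chosen after seeing the data. Because the experiment of each sample is not labelled, it could not be entered in the fit.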

Additional observations from a re-analysis of the deposited data

Results flagged for a closer look

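For 4 of the 8 ligand genes the LPS response differed between IL-4-pretreated and untreated cells by the limma interaction test, in log2(FPKM + 1). The difference was 1.99 for Icam1 (adjusted p = 0.00114), 0.95 for Cd80 (adjusted p = 0.0217) and 0.82 for Cd86 (adjusted p = 0.0417), each with the larger LPS response after IL-4. It was -0.96 for Pdcd1lg2 (adjusted p = 0.00936), which LPS lowered after IL-4 and which was near 0 without it. Of the 12 fits that leave out 1 sample, the call was lost in 9 for Cd86 and in 4 for Cd80. For Pdcd1lg2 it was lost with a pseudocount of 0.1 (adjusted p = 0.0995). All of the 3 genes with a larger response started from a lower level after IL-4, with IL-4 minus control at -1.09 for Icam1, -0.69 for Cd80 and -1.72 for Cd86. The FPKM gains from LPS, without and with IL-4, were 1001 and 1941 for Icam1 and 8.04 and 6.69 for Cd86, the first of the Cd86 gains being 6.49 without LPS replicate 1. The level of Cd86 in IL-4+LPS remained 1.96-fold below that in LPS.

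Among genes of the lists, the same test passed at 2.66 for Vcam1, 1.56 for Tnfsf15, 1.39 for Tnfsf4 and 0.34 for Cd48 of the other T cell ligands, at 1.15 for Cd28 and 1.00 for Itgal of the T cell receptors, and at 2.71 for Thbs1 of the CD47 and SIRPa genes. For the regulators of PD-L1 it was 0.66 for Stat6, -1.86 for Il4ra, -1.20 for Jak2, -0.54 for Jak1 and -0.50 for Ifngr2.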

How the results depend on the processing

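Of the 40 member results (8 genes in 5 comparisons), 29 kept their direction and their side of the threshold in all alternatives run for single genes. The 2-fold minimum is not among these, because it was applied to counts of calls only. A 2-fold minimum left 3 members called in LPS minus control, 4 in IL-4 minus control, 4 in IL-4+LPS minus IL-4, 1 in IL-4+LPS minus LPS and 1 in the interaction. Unadjusted p gave 7 in the interaction. With each sample left out in turn, members called were 6 in LPS minus control, 7 in IL-4 minus control and 8 in IL-4+LPS minus IL-4 throughout, 5 to 6 in IL-4+LPS minus LPS and 2 to 5 in the interaction, with 2 without control replicate 3, IL-4 replicate 2, LPS replicate 2 or IL-4+LPS replicate 2.

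Some differences that did not pass the threshold changed sign (Cd80 in LPS minus control passed after quantile normalization, at 0.62). LPS minus control was -0.023 for Cd80 without control replicate 2 (up to 0.102 with other samples left out), and for Pdcd1lg2 it was 0.025 after median scaling, 0.042 after quantile normalization and 0.007 without control replicate 2 (down to -0.075 with others left out). IL-4 minus control of Cd47 was -0.046 after quantile normalization, -0.001 with replicates 2 and 3 only, -0.009 without IL-4 replicate 1 and -0.013 without control replicate 3 (up to 0.12 with others left out). With replicates 2 and 3 only, the interaction passed for Cd274 (-0.85, adjusted p = 0.0019) and Icosl (0.76, adjusted p = 0.00769). The interaction of Cd86 and IL-4+LPS minus LPS of Cd47 were lost without an expression filter (adjusted p = 0.0584 and 0.057), and the latter without the trend (0.0566). The cause was not tested.

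Over all rows, a 2-fold minimum left 883 higher and 2121 lower in LPS minus control (1887 and 6462 without it), 309 and 391 in IL-4 minus control (1795 and 2346), 842 and 1691 in IL-4+LPS minus IL-4 (1682 and 6474), 303 and 332 in IL-4+LPS minus LPS (1682 and 1771) and 146 and 155 in the interaction (512 and 518). Median scaling gave 2984 higher in LPS minus control and 2638 higher and 4017 lower in IL-4+LPS minus IL-4, and quantile normalization gave 2903 and, for lower rows, 4173. In the interaction, unadjusted p gave 1439 and 1264, replicates 2 and 3 only gave 1481 and 1386, and leaving out IL-4 replicate 3 or LPS replicate 3 gave 325 or 311 higher and 334 lower. Replicates 2 and 3 only gave 2901 lower in IL-4+LPS minus LPS.

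Replicate numbers were not taken to pair the samples. Deviations of same-numbered samples from their group means correlated at 0.0024 to 0.386 over 18 pairs (mean 0.124), 7 of them at 0.1 or less. The mean for other numbers was -0.0596, which is no separate baseline, because deviations within a group cancel out. In every other group, 6 of 12 samples correlated best with their own number, a hint from the data and not from the design. With the replicate number as a block, members called were 6, 7, 8 and 6 in the comparisons of groups and 6 in the interaction, where Cd274 (-0.70, adjusted p = 0.043) and Icosl (0.57, adjusted p = 0.0398) passed. The block gave 2667 lower rows in IL-4+LPS minus LPS and 1145 higher and 1095 lower in the interaction. The fit of only the compared groups was not run for the interaction, which uses all groups.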
